A study of Mus musculus with 3 samples.

Results

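The comparison set gastrocnemius muscle, a mostly fast-twitch muscle of the mouse calf, after 24 h of tamoxifen against the same muscle after 24 h of oil. It used 2 of the 3 arrays of the series, chosen by their labels, with 1 array on each side. Mice of both groups were Akt_Cre transgenic animals on a C57BL/CD1 background. According to the labels they make Akt joined to an oestrogen-binding domain in skeletal muscle and nowhere else, and tamoxifen stabilises that fusion protein, after which the muscle grows. The oil mice therefore carried the fusion as well and differed from the others in receiving oil, the control agent, in place of tamoxifen. Each array held total RNA pooled from 3 to 4 mice, so variation between mice was not measured. The sources used here do not say what a Cre recombinase does in these mice. Mice that lack the fusion were not analysed here, so an effect of the drug by itself and an effect of the fusion cannot be told apart. The third array, tamoxifen for 48 h, entered the filter and the scaling, and its values are given beside some of the others. It has no oil array of its own time and would share the 24 h oil array.

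Akt is the kinase through which insulin and IGF1 act on muscle. Active Akt phosphorylates the FoxO transcription factors and keeps them out of the nucleus, where they would otherwise switch on the muscle ubiquitin ligases Fbxo32 and Trim63 and other genes of protein breakdown. Akt also acts on mTOR complex 1, which drives protein synthesis, ribosome production and, through the factor ATF4, amino acid and one-carbon metabolism.

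After 24 h of tamoxifen the ubiquitin ligase Fbxo32 read 5.25-fold lower than on oil and Trim63 2.84-fold lower, with the FoxO targets Pdk4 and Ccng2 2.35-fold and 2.79-fold lower. Trim63 and Pdk4 each rest on 1 kept probe set, and Pdk4 read 1030 at 48 h against 1011 on oil. Of 23 metabolic FoxO targets compared 9 lay above 0, 5 were at least 2-fold lower and 1, Cdkn1a, was higher. Their share past 2-fold was 26.1%, against 4.83% of all genes. The list was chosen with earlier results of these data known, so this share describes its members and is no test. Its median oil intensity was 279, against 92.9 over all genes. The transferrin receptor Tfrc, securin (Pttg1) and the cell cycle inhibitor Cdkn1a were 2.97-fold, 6.81-fold and 4.46-fold higher on their brightest probe sets, and past 2-fold on every other. No gene of the fast-fibre and slow-fibre contractile, oxidative phosphorylation, proteasome or autophagy lists passed 2-fold on its brightest probe set. These lists are bright, with median oil intensities of 353 or more against 92.9 over all genes. In the brightest of 5 level groups of genes only 1.71% were at least 2-fold higher and 0.766% lower. Embryonic sarcomere genes were listed apart. Of these 2 of 6 were higher, Mybph at 7.23-fold and Actc1 at 2.01-fold, on the threshold. Each value compares 1 pooled array with 1 other.

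The arrays were Affymetrix Mouse 430 2.0, on which each gene is read by 1 or more probe sets, groups of short oligonucleotides for the same transcript. Values are intensities in arbitrary units after scaling the arrays to the same median, and a log2 ratio of 1 is a 2-fold difference. Each gene was read on the kept probe set that ranked highest on average, called here its brightest, which gave 11092 genes. With 1 array a side there is no replicate error and no test was possible. A gene is called higher or lower when it was at least 2-fold different, which is a rule of size and not of significance. By that rule 261 genes were higher, 2.35% of those compared, and 275 were lower, 2.48%. Among the higher genes 2 had their oil value at the floor of 4.05, and their ratios are lower bounds. The median log2 ratio over all genes was 0.039, and 5988 of the 11092 genes lay above 0. The split moved with the scaling: 48.7% of the calls were higher, against 63.8% with the deposited values unscaled (363 higher and 206 lower) and 60.0% after quantile normalisation (311 and 207).

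Ratios of 2-fold were common among dim probe sets. The kept probe sets were cut by level into 5 groups of equal size. In the dimmest group 4.13% were 2-fold higher and 13.1% lower, against 1.40% and 0.940% in the brightest. The median log2 ratio was -0.23 in the dimmest group and 0.089 in the brightest. Control ratios that mark RNA breakdown were alike on both arrays: the 3' over 5' ratio of Gapdh was 0.846 on oil and 0.867 on tamoxifen, and that of Actb was 0.976 and 0.951.

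**Figure D1:**
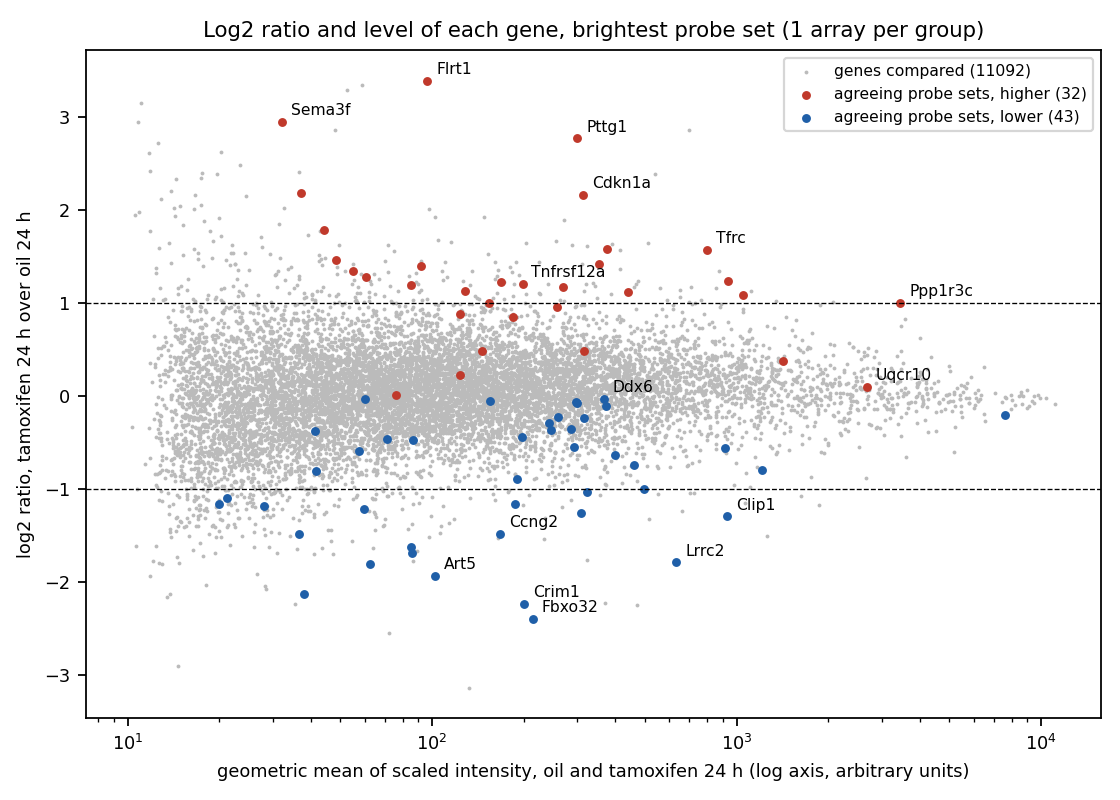
Log2 ratio of tamoxifen 24 h over oil 24 h (vertical axis) against the geometric mean of the 2 scaled intensities (horizontal log axis) for the 11092 genes, each on its brightest probe set, with dashed lines at 2-fold. Genes with agreeing probe sets are coloured, 32 higher in red and 43 lower in blue, and some of these, such as Ddx6 and Uqcr10, lie near 0 because their agreeing probe sets are the dimmer ones.

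Most weight was put on genes read by several probe sets. Of the genes compared, 5001 had 2 or more kept probe sets. Probe sets of a gene may overlap in sequence and were hybridised to the same arrays, so they are no replicates of the treatment. The log2 ratios of the brightest and the next brightest probe set differed by a median of 0.32, with a 90th percentile of 0.99, and had the same sign in 3056 of the 5001 genes (61.1%). Of the genes 2-fold higher on the brightest probe set, 80 had another, which was above 0 in 64, 2-fold higher in 23 and 2-fold lower in 1. Of the genes 2-fold lower, 92 had another, which was below 0 in 63, 2-fold lower in 16 and 2-fold higher in 1. A gene was said to agree when all its kept probe sets lay on the same side and at least 2 of them passed 2-fold. By that rule 32 genes were higher (0.64% of the 5001) and 43 were lower (0.86%). In 20 of the higher genes (0.4%) and 15 of the lower (0.3%) every kept probe set passed 2-fold.

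**Figure D2:**
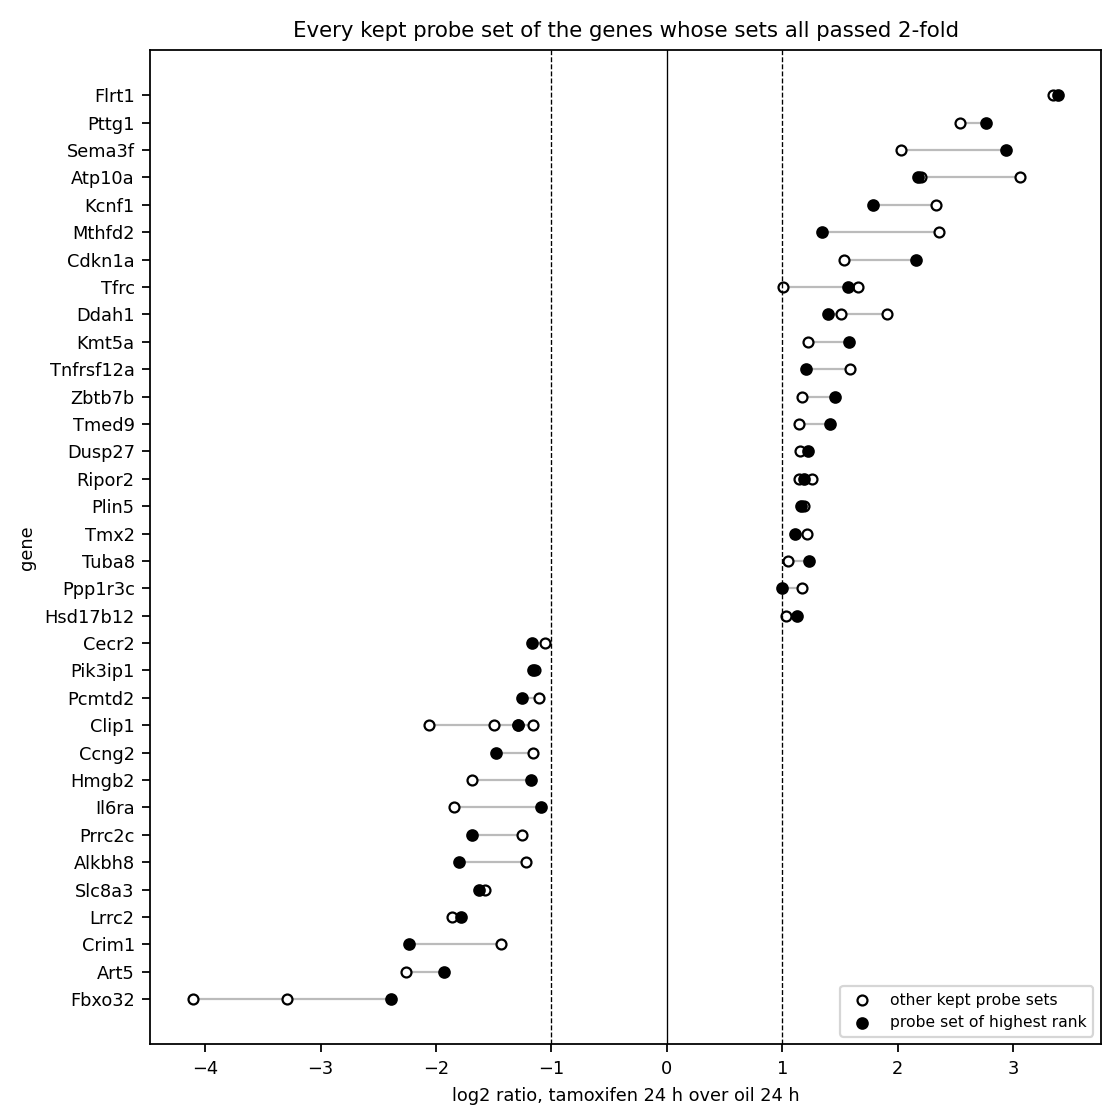
Log2 ratio of tamoxifen 24 h over oil 24 h (horizontal axis) for every kept probe set of the genes whose probe sets all passed 2-fold, with 1 gene a row and filled points for the brightest probe set. The 20 higher genes run from Hsd17b12 to Flrt1 and the 14 lower ones with a gene name from Cecr2 to Fbxo32, whose 3 probe sets spread from -4.10 to -2.39.

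Flrt1, a cell-surface adhesion protein with leucine-rich repeats, had the largest median ratio of the agreeing genes. Its probe sets read 29.8 on oil and 312 on tamoxifen, and 7.90 and 80.3, 10.5-fold and 10.2-fold higher. Pttg1 encodes securin, which blocks the separation of sister chromatids until anaphase. It read 115 and 783 on the brightest probe set, 6.81-fold higher, and 5.81-fold higher on the other. Sema3f, a secreted guidance factor, read 11.6 and 89.0, 7.69-fold higher, with 4.09-fold on the other probe set. Atp10a, which moves phospholipids across the membrane, was read by 3 probe sets. These were 4.53-fold, 8.34-fold and 4.60-fold higher. Kcnf1, a subunit of voltage-gated potassium channels, read 23.8 and 82.1, 3.45-fold higher, and 5.03-fold higher on the other probe set.

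Cdkn1a encodes p21, an inhibitor of cyclin-dependent kinases and a target of both p53 and FoxO. It read 148 on oil and 661 on tamoxifen for 24 h, 4.46-fold higher, and 211 on the 48 h array. Its other probe set read 51.7, 149.9 and 39.6, so the 24 h array stood above both others on each. Tfrc, the transferrin receptor that brings iron into cells, was 2.97-fold, 3.16-fold and 2.01-fold higher on its 3 probe sets. The brightest read 464 on oil and 1379 on tamoxifen, and 1919 at 48 h. Tnfrsf12a is the receptor for TWEAK, a cytokine that acts on muscle. Its probe sets read 131 and 301, and 118 and 355, 2.30-fold and 3.01-fold higher. The 48 h array lay above the 24 h array on both, at 1446 and 1291.

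The other genes with every probe set at least 2-fold higher fell into several functions. Mthfd2, a mitochondrial folate enzyme, was 2.53-fold and 5.14-fold higher, with 34.7 on oil and 87.8 on tamoxifen on the brightest probe set. Plin5 coats lipid droplets in oxidative tissues and read 179 and 402, 2.25-fold higher. Ppp1r3c brings protein phosphatase to glycogen and favours its synthesis. It was bright, at 2440.1 and 4883, and at 2.00-fold it lay on the threshold, which it missed after quantile or loess normalisation. Hsd17b12, an enzyme of fatty acid elongation, was 2.18-fold higher. Tuba8, an alpha tubulin, read 609 and 1431, 2.35-fold higher, and tubulin genes are alike in sequence. Tmed9, a cargo protein between endoplasmic reticulum and Golgi, was 2.67-fold higher, and Tmx2, a membrane protein of the thioredoxin family, 2.16-fold. Kmt5a, which puts a single methyl group on lysine 20 of histone H4, was 2.99-fold higher, and the transcription factor gene Zbtb7b was 2.75-fold higher. Ddah1, which removes an inhibitor of nitric oxide synthase, was 2.64-fold higher on its brightest of 3 probe sets. Ripor2, an inhibitor of RhoA, was between 2.22-fold and 2.39-fold higher on 3, and Dusp27 was 2.34-fold higher.

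In the other agreeing higher genes part of the probe sets passed. Trim35, a ubiquitin ligase of the TRIM family, read 719 and 1526, 2.12-fold higher, with a log2 ratio of 0.30 on the dimmest of 3, and missed 2-fold after quantile normalisation. In Amhr2, Bace1, Nedd4l, Pmepa1, Synpo2l, Ttc9c, Uqcr10 and Vat1 the brightest probe set was within 2-fold. Uqcr10, a subunit of respiratory complex III, was the widest of these. Its brightest probe set read 2597 on oil and 2775 on tamoxifen, while the dimmer ones read 139.7 and 863, and 37.6 and 455. Those were 6.18-fold and 12.1-fold higher, so the probe sets of this gene gave no common value. Pmepa1, a brake on Smad signalling, was closer in its probe sets, with log2 ratios of 0.88, 1.17 and 1.06.

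The others of this kind came from varied functions. Synpo2l, an actin-associated protein of the Z disc, read 1246 and 1621 on its brightest probe set, and 115 and 259, and 68.2 and 226, on the dimmer ones. Bace1, a protease that cuts membrane proteins, had 4 probe sets with log2 ratios from 0.48 to 1.38. Nedd4l, a ubiquitin ligase that removes ion channels from the membrane, had 5, from 0.28 to 1.49, of which 2 passed 2-fold. Amhr2, the receptor for anti-Mullerian hormone, had log2 ratios of 0.48, 1.16 and 1.85. Vat1 read 75.9 and 76.5 on its brightest probe set and was 2.05-fold and 3.69-fold higher on the dimmer ones, and Ttc9c was 3.05-fold and 2.32-fold higher on the dimmest of 4. In this group the size of the ratio went up as the probe sets became dimmer in Amhr2, Synpo2l and Vat1, as in Uqcr10 above.

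**Figure D3:**
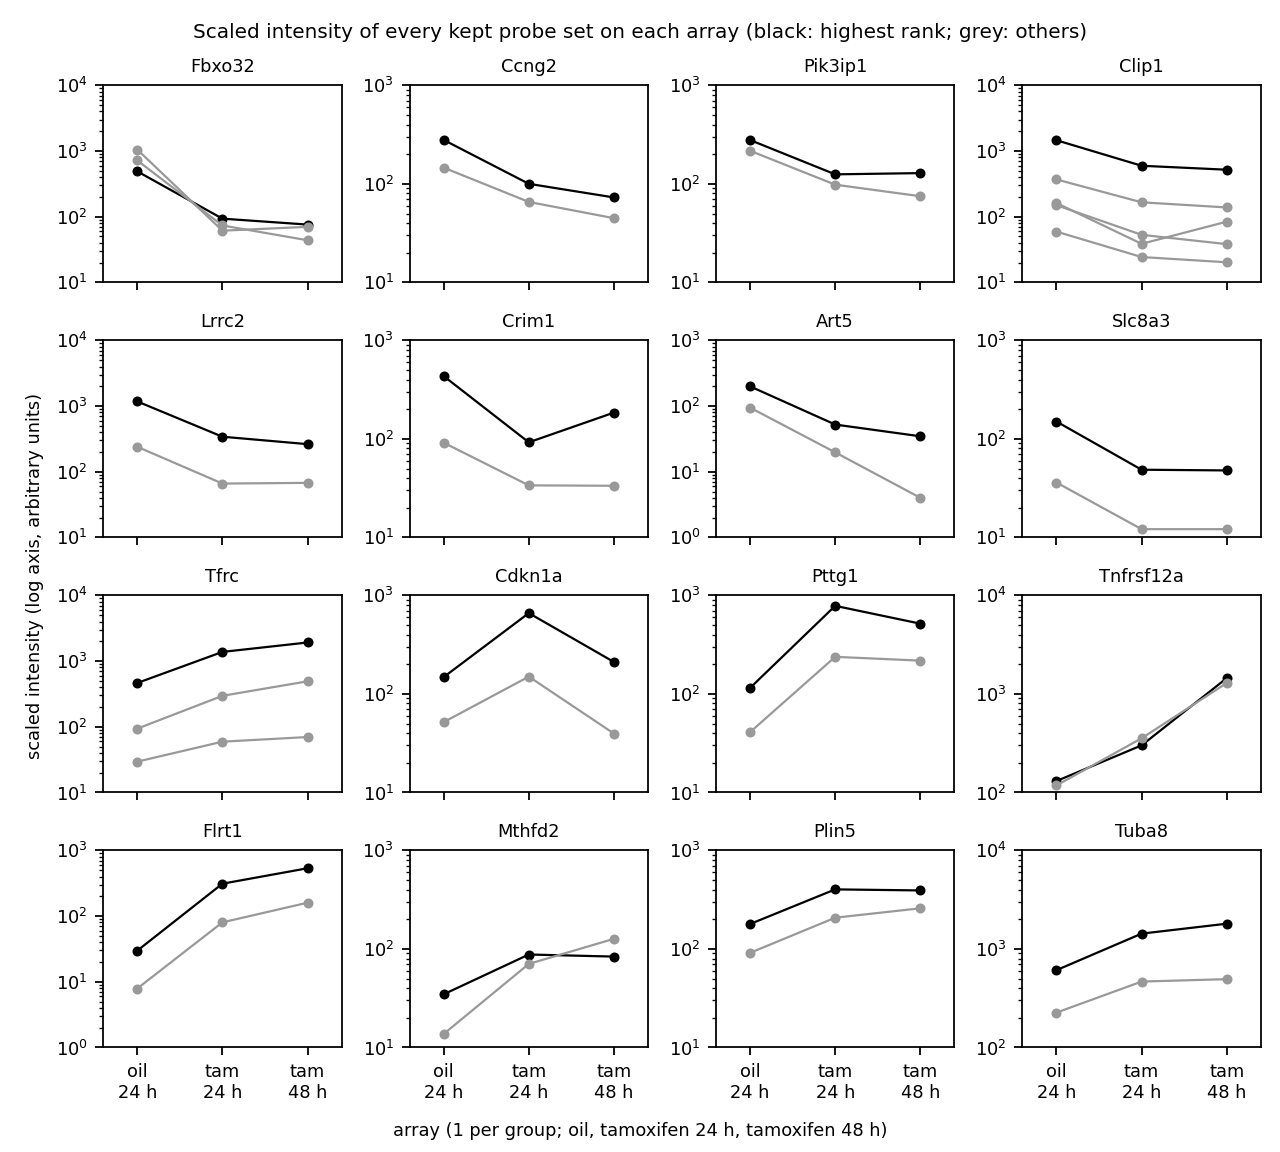
Scaled intensity (vertical log axis, arbitrary units) on the oil 24 h, tamoxifen 24 h and tamoxifen 48 h arrays for 16 genes whose kept probe sets all passed 2-fold at 24 h, with the brightest probe set in black and the others in grey; lines join the values of a probe set. The 8 genes of the upper panels, from Fbxo32 to Slc8a3, lie lower on both tamoxifen arrays than on oil on every probe set, and Cdkn1a has its highest value at 24 h on both of its probe sets.

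Fbxo32, which encodes the muscle ubiquitin ligase atrogin-1, had the lowest median ratio of the agreeing genes. Its 3 probe sets read 490.1 and 93.4, 1052 and 61.3, and 719 and 73.5. These are 5.25-fold, 17.2-fold and 9.77-fold lower, so the direction was shared and the size was not. Art5, an enzyme that attaches ADP-ribose to proteins, read 199 and 52.3, 3.81-fold lower, and was 4.80-fold lower on the other probe set. Crim1, a membrane protein that binds BMPs, read 434 and 92.3, 4.70-fold lower, with 2.71-fold on the other. Lrrc2, a protein with leucine-rich repeats, was bright on oil. It read 1176 there and 341 on tamoxifen, 3.44-fold lower, and 3.63-fold lower on the other probe set. Slc8a3, a sodium and calcium exchanger of the cell membrane, read 150.0 and 48.7, 3.08-fold lower, and 2.97-fold lower on the other.

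Clip1, which tracks the growing ends of microtubules, was read by 5 probe sets, the most of any gene of this kind. All of them were lower, from 2.23-fold to 4.18-fold, and the brightest read 1459 on oil and 596 on tamoxifen. Ccng2, cyclin G2, a FoxO target linked to arrest of the cell cycle, read 279 and 100.1, 2.79-fold lower. Pik3ip1, which holds back PI3-kinase upstream of Akt, read 279 and 125, 2.23-fold lower, and was 2.21-fold lower on its other probe set. Il6ra, the receptor chain for interleukin 6, was dim. It read 31.0 and 14.5, 2.13-fold lower, and missed 2-fold on the brightest probe set with the values unscaled or after quantile or loess normalisation. Alkbh8, which modifies the wobble base of transfer RNAs, was 3.49-fold lower at 24 h, with 116 on oil and 33.4 on tamoxifen, and read 125 at 48 h. Hmgb2, a chromatin protein, was 2.26-fold lower, Prrc2c 3.22-fold, Pcmtd2 2.38-fold and Cecr2, a chromatin remodelling factor, 2.24-fold. Cecr2 missed 2-fold after quantile or loess normalisation.

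In 25 of the 43 agreeing lower genes, against 9 of the 32 higher ones, the brightest probe set was within 2-fold and the ones that passed ranked lower. Rank averages the 3 arrays, and on oil some of these read above the brightest: 1477 against 1107 in Rilpl1, 381 against 280 in Fzd4 and 313 against 259 in Deptor. Ddx6, an RNA helicase of P-bodies, read 371 and 364 on its brightest probe set. The dimmer ones read 122 and 17.0, and 76.1 and 11.5, 7.14-fold and 6.60-fold lower. Akap13, a scaffold for protein kinase A, had a brightest log2 ratio of -0.23 and others of -2.02 and -3.15. Gsk3b, a kinase that Akt inhibits, was read by 6 probe sets, with log2 ratios from -2.39 to -0.36. Car3, muscle carbonic anhydrase, read 8153 and 7069.6 on the brightest probe set and was 2.99-fold and 4.44-fold lower on the dimmest pair. On the 48 h array these lower-ranked probe sets stood closer to oil: 91.6 for the second of Ddx6, 231 for the second of Gsk3b and 421 for the lowest-ranked of Car3, which read 755 on oil.

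Klhl24, a ubiquitin ligase adaptor, was lower on all 5 probe sets, 4 of them past 2-fold. Its brightest read 459.7 on oil, 226 on tamoxifen and 190.2 at 48 h, 2.04-fold lower at 24 h, and missed 2-fold with the values unscaled. Rilpl1, which helps set the content of the primary cilium, had log2 ratios of -0.56, -1.49, -0.93 and -1.11, and its second probe set read 1477 and 526. Kmt2e, a chromatin protein, had 4 from -1.95 to -0.55. Fzd4, a Wnt receptor of blood vessels and other cells, read 381 and 119.6 on its second probe set, 3.18-fold lower, against -0.37 as log2 ratio on the brightest. Pde4b, which breaks down cyclic AMP, had log2 ratios of -0.64, -1.04 and -1.56.

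Among the dim agreeing lower genes were the potassium channels Kcna1 and Kcnc1, whose brightest probe sets had log2 ratios of -0.80 and -0.47. Malt1, a protease of NF-kappaB signalling, read 46.9 and 36.2 on its brightest probe set and was 2.25-fold and 3.03-fold lower on the others. Ro60, a protein that binds small RNAs, was 2.37-fold, 2.36-fold and 2.12-fold lower on 3 of 4 and had -0.027 on the brightest. Gas2l3, which links actin to microtubules, read 79.2 and 18.1, 4.37-fold lower, with 56.4 at 48 h, and Epb41l4b read 60.9 and 21.9, 2.78-fold lower. In both, the middle of 3 probe sets was within 2-fold, at -0.60 and -0.27.

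Over the whole array a lean to lower values was found in dim and lower-ranked probe sets. In the brightest of 5 level groups of kept probe sets 1.40% were higher and 0.940% lower. Among genes with several probe sets, 1.84% of the brightest were at least 2-fold lower, 4.86% of the second, 8.02% of the third and 10.6% of those after. The shares 2-fold higher stayed between 1.60% and 2.76%. The order within a gene averages ranks over the 3 arrays, so a low tamoxifen value itself moves a probe set down the order. How much of the rise comes from this was not tested. Of 1896 kept probe sets that the annotation does not list, 262 were lower (13.8%) and 27 higher (1.42%). The part of level, or of what these probe sets hybridise to, in the agreeing lower genes was not tested.

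**Figure D4:**
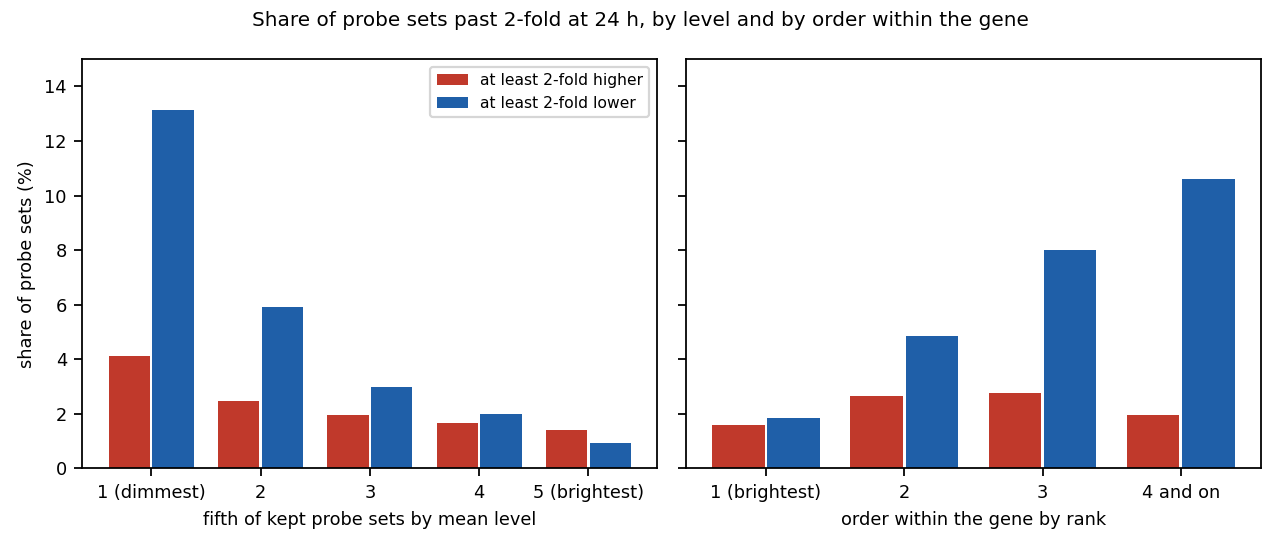
Share of kept probe sets (vertical axis, percent) that were 2-fold higher (red) or lower (blue) on tamoxifen 24 h than on oil 24 h, by level in 5 equal groups (left) and by order within genes that have several probe sets (right). The share lower goes from 13.1% in the dimmest group to 0.940% in the brightest, and from 1.84% of brightest probe sets to 10.6% of those from the fourth on. The order within a gene averages ranks over the 3 arrays, so a low tamoxifen value itself moves a probe set down the order.

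Gene lists by function were then read on the brightest probe set of each member. Of the genes compared 6091 had 1 kept probe set, so no other could be set beside it. Among those called below, these include Aars2, Atf5, Chac1, Cish, Lcn2, Max, Mybph, Rxrg and Sln. Counts of calls below stand against 4.83% of all genes past 2-fold, 2.35% higher and 2.48% lower. The lists were chosen with earlier results of these data known, so these shares describe their members and are no test. With the genes cut by level into 5 equal groups, 4.15% were higher and 7.12% lower in the dimmest, against 1.71% and 0.766% in the brightest. Among 36 genes of the Akt and mTOR pathway, 1 was higher and 1 lower, with a median log2 ratio of -0.022, so their share past 2-fold was near the 4.83% of all genes. The kinases themselves were within 2-fold. Akt1 read 100.3 and 133, and Akt2 read 220.4 and 280.0. Whether these probe sets read the fusion was not tested, and the labels describe tamoxifen as acting on its protein. Esr1, oestrogen receptor alpha, read 225 and 256. The lower gene was the PI3-kinase inhibitor Pik3ip1 given above. The higher gene was Tbc1d1, an Akt substrate that controls glucose transporter traffic, at 97.0 and 202, 2.08-fold. Of its 4 probe sets another was 2.07-fold higher, while the third read 84.3 and 47.2, so they did not share a direction, and Tbc1d1 missed 2-fold after loess normalisation. Deptor, an inhibitor of mTOR, had 4 probe sets below 0, of which 2 passed 2-fold, and its brightest read 259 and 139.

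Of 22 muscle ubiquitin ligases 2 were lower and 1 higher (13.6%), with a median of 0.17. Beside Fbxo32, Trim63, which encodes MuRF1 and tags contractile proteins for breakdown, read 2113 on oil and 745 on tamoxifen. It was 2.84-fold lower on its single kept probe set, and read 1150.0 at 48 h. Klhl40, a protein that stabilises parts of the thin filament, read 307 and 707, 2.30-fold higher.

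FoxO factors and their metabolic targets gave 26 genes, with 5 lower, 1 higher (23.1% past 2-fold, against 4.83% of all genes) and a median of -0.24. That median stayed between -0.30 and -0.14 under the other scalings. The factors were within 2-fold: Foxo1 read 157 and 229, Foxo3 read 134 and 96.8, and Foxo4 read 124 and 120.2. Pdk4, which shuts pyruvate out of mitochondrial oxidation, read 1011 and 430.5, 2.35-fold lower, and 1029.7 at 48 h. Bcl6, a transcriptional repressor, read 403 and 177, 2.28-fold lower, with -0.68 as log2 ratio on its other probe set. Klf15, a regulator of amino acid breakdown, read 253 and 126, 2.02-fold lower, and missed 2-fold with the values unscaled. Ccng2 and Pik3ip1 complete the lower members and Cdkn1a is the higher one. Several of these genes, with Fbxo32 and Trim63, also answer to glucocorticoids. In a list of 24 glucocorticoid-responsive genes 5 were lower and 1 higher (25%), with a median of -0.074. The lower ones were Fbxo32, Trim63, Pdk4, Klf15 and Glul. Glul, glutamine synthetase, read 2361 and 1118, 2.11-fold lower, and also missed 2-fold unscaled. The higher one was Lcn2, lipocalin 2, at 17.7 and 129, 7.26-fold.

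Protein breakdown outside the ligases showed no call. None of 36 autophagy and lysosome genes passed 2-fold, with a median of 0.062. Bnip3, a mitophagy receptor, read 2398 and 1663, and Sqstm1, the autophagy adaptor p62, 2446 and 2078. None of 34 proteasome subunits passed either, though 28 lay above 0, with a median of 0.18. Psmb7, a catalytic subunit, read 3035 and 3389. In some genes a dimmer probe set passed 2-fold, in either direction, while the brightest did not. Among genes with 2 or more kept probe sets these were 2 of 21 autophagy and lysosome genes and 4 of 17 proteasome genes. Among all genes compared they were 603 of 5001.

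The promoters of the lower genes were read for the forkhead motif that FoxO factors bind, searched as GTAAACA or ATAAACA on both strands. No position can match both forms. Promoter windows were RefSeq's on GRCm38.p6, from 250 bases before to 50 after the start site, and 7.97% of all 32851 windows held a match. Of the 31 agreeing lower genes with an entry 4 had a match, of the 26 agreeing higher genes 1 did, and of 6 lower FoxO targets or ligases with an entry 1 did, Trim63. Fbxo32 was not searched. A match describes letters and is not a binding site. The 250 bases before the start are shown for Trim63 and for Lrrc2 and Crim1, the agreeing lower genes with a match among those with the largest ratios, 5′ to 3′ on the gene's strand with the match in capitals. Trim63 lies at chr4:134314870-134315119 on the plus strand, Lrrc2 at chr9:110951295-110951544 on the plus strand and Crim1 at chr17:78199998-78200247 on the plus strand. The matches begin -194, -66 and -27 bases from the start site.
Trim63: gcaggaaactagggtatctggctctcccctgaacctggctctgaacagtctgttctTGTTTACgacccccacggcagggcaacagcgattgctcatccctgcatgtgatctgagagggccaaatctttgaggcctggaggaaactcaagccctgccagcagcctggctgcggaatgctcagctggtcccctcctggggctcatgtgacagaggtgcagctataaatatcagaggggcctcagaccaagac
Lrrc2: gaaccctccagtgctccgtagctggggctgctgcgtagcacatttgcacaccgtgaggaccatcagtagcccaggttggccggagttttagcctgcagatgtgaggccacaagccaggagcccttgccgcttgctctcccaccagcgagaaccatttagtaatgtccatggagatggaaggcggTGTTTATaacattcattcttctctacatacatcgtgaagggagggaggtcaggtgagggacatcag
Crim1: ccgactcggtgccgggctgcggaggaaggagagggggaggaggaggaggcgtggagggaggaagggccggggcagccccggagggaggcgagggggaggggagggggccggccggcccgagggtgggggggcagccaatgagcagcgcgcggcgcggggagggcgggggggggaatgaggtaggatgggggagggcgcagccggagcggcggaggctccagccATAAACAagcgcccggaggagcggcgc

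Smad signalling, the pathway of myostatin and activins that limits muscle size, had 1 call among 33 genes, with a median of 0.033. Inhbb, a subunit of activin B and so a ligand, read 42.5 and 18.9, 2.25-fold lower, while its other probe set had a log2 ratio of 0.48. Smad2 read 68.5 and 88.4 and Smad3 read 333 and 398, both within 2-fold. Among 20 BMP genes Crim1 was the single call, and the 4 Id genes compared, targets of BMPs, lay between -0.65 and -0.051. Of 17 genes for IGF ligands, their binding proteins, receptors and adaptors 1 was higher, Igfals, which carries IGF in blood, at 10.2 and 28.4, 2.77-fold. With a raised floor the log2 ratio of Igfals was 1.01, against 1.47. The ligand Igf1 itself read 682 and 645.

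The ATF4 list, of factors and enzymes that supply amino acids, had 3 higher genes and 1 lower among 21 and the highest median of the functional lists, 0.41, against 0.039 over all genes. The median lay between 0.37 and 0.50 under the other scalings. With the median of each gene's probe sets as its value it was 0.29, below the endoplasmic reticulum chaperones at 0.34. Among the factors, Atf5 read 136 and 369.9, 2.72-fold higher, and Atf3, a stress-induced factor, read 28.2 and 58.1, 2.06-fold higher. The higher enzyme was Mthfd2. Chac1, which breaks down glutathione and is a common marker of ATF4 activity, went the other way: it read 799 on oil, 171 on tamoxifen at 24 h, 4.68-fold lower, and 671 at 48 h. By role, 6 of 8 factors and 6 of 8 synthesis enzymes were above 0, with medians of 0.48 and 0.54, while 2 of 5 export and stress genes were, with a median of -0.61.

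The motif that ATF4 binds with C/EBP proteins, searched as TGATGNAA on both strands, was found in 3.97% of all promoter windows. It was found in 6 of the 20 ATF4 list genes with an entry, Asns, Atf3, Chac1, Nupr1, Trib3 and Vldlr, and so in a higher and in a lower gene. The 250 bases before the start of Atf3, at chr1:191183334-191183583 on the minus strand, and of Chac1, at chr2:119350992-119351241 on the plus strand, are shown with the match in capitals, 5′ to 3′ on the gene's strand. The matches begin -110 and -193 bases from the start site.
Atf3: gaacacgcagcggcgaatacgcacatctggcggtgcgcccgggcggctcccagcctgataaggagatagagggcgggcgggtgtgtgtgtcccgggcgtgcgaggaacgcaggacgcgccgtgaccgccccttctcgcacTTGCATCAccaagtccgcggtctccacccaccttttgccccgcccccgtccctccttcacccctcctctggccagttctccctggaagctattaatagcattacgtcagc
Chac1: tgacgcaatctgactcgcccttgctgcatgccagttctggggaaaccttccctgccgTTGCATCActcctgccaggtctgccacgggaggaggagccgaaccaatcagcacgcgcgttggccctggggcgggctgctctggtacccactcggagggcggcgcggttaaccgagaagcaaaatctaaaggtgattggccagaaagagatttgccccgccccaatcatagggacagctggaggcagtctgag

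Enzymes that load transfer RNAs had 1 call among 34: Aars2, the mitochondrial alanyl enzyme, at 8.20 and 50.4, 6.15-fold higher, from a dim value on oil. Among 22 amino acid and peptide transporters 3 were lower and 1 higher (18.2%). Slc43a1, a carrier of large neutral amino acids, read 93.7 and 31.8, 2.95-fold lower. Slc15a2, a peptide carrier, read 102 and 41.7, 2.46-fold lower, and Slc38a1, a glutamine carrier, 21.7 and 7.10, 3.06-fold lower. Slc7a5, the LAT1 carrier of leucine, read 13.5 and 27.7, 2.06-fold higher, and missed 2-fold with a raised floor or a pseudocount in place of the floor, as Slc38a1 did with a raised floor. Slc38a1 passed the filter only with the 48 h array averaged in, where it read 21.8.

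Chaperones and folding enzymes of the endoplasmic reticulum had no call among 29, with 22 above 0 and a median of 0.25. Hspa5, the chaperone BiP, read 858 and 1397, and Xbp1, a factor of the unfolded protein response, 879 and 1336. Of 26 heat shock proteins 2 small ones were higher. Hspb3 read 472 and 1059, 2.24-fold, and Hspb8, which helps clear damaged filament proteins, 944 and 1916, 2.03-fold. Of the 7 small heat shock proteins 6 were above 0, with a median of 0.55, against 14 of 19 others with a median of 0.093. Hspb8 missed 2-fold after quantile or loess normalisation and with the median of its probe sets.

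Genes of the ribosome and of translation stayed close to oil. Of 40 ribosome biogenesis genes 2 were higher, with a median of 0.068: Bysl, which matures the small subunit, at 75.6 and 152, 2.02-fold, and Max, the partner of Myc, at 9.89 and 55.3, 5.59-fold. Bysl missed 2-fold after quantile or loess normalisation and with the median of its probe sets, and had a log2 ratio of 0.48 on its other probe set. Cytosolic ribosomal proteins, 41 in all, had a median of 0.021. The 1 higher among them, Rpl39, at 2.36-fold, belongs to a family with many near-identical copies and is uncertain. None of 34 translation factors passed 2-fold. Eef1a2, the elongation factor of adult muscle, read 2892 and 3889, and Eef1a1 read 4167 and 4049. Of 68 mitochondrial ribosomal proteins 57 lay above 0, against 5988 of all 11092 genes, with a median of 0.29 that stayed between 0.20 and 0.38 under the other scalings, and 1 was called. It was Mrps18a, at 537 and 1094, 2.04-fold, which missed 2-fold after quantile or loess normalisation.

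**Figure D5:**
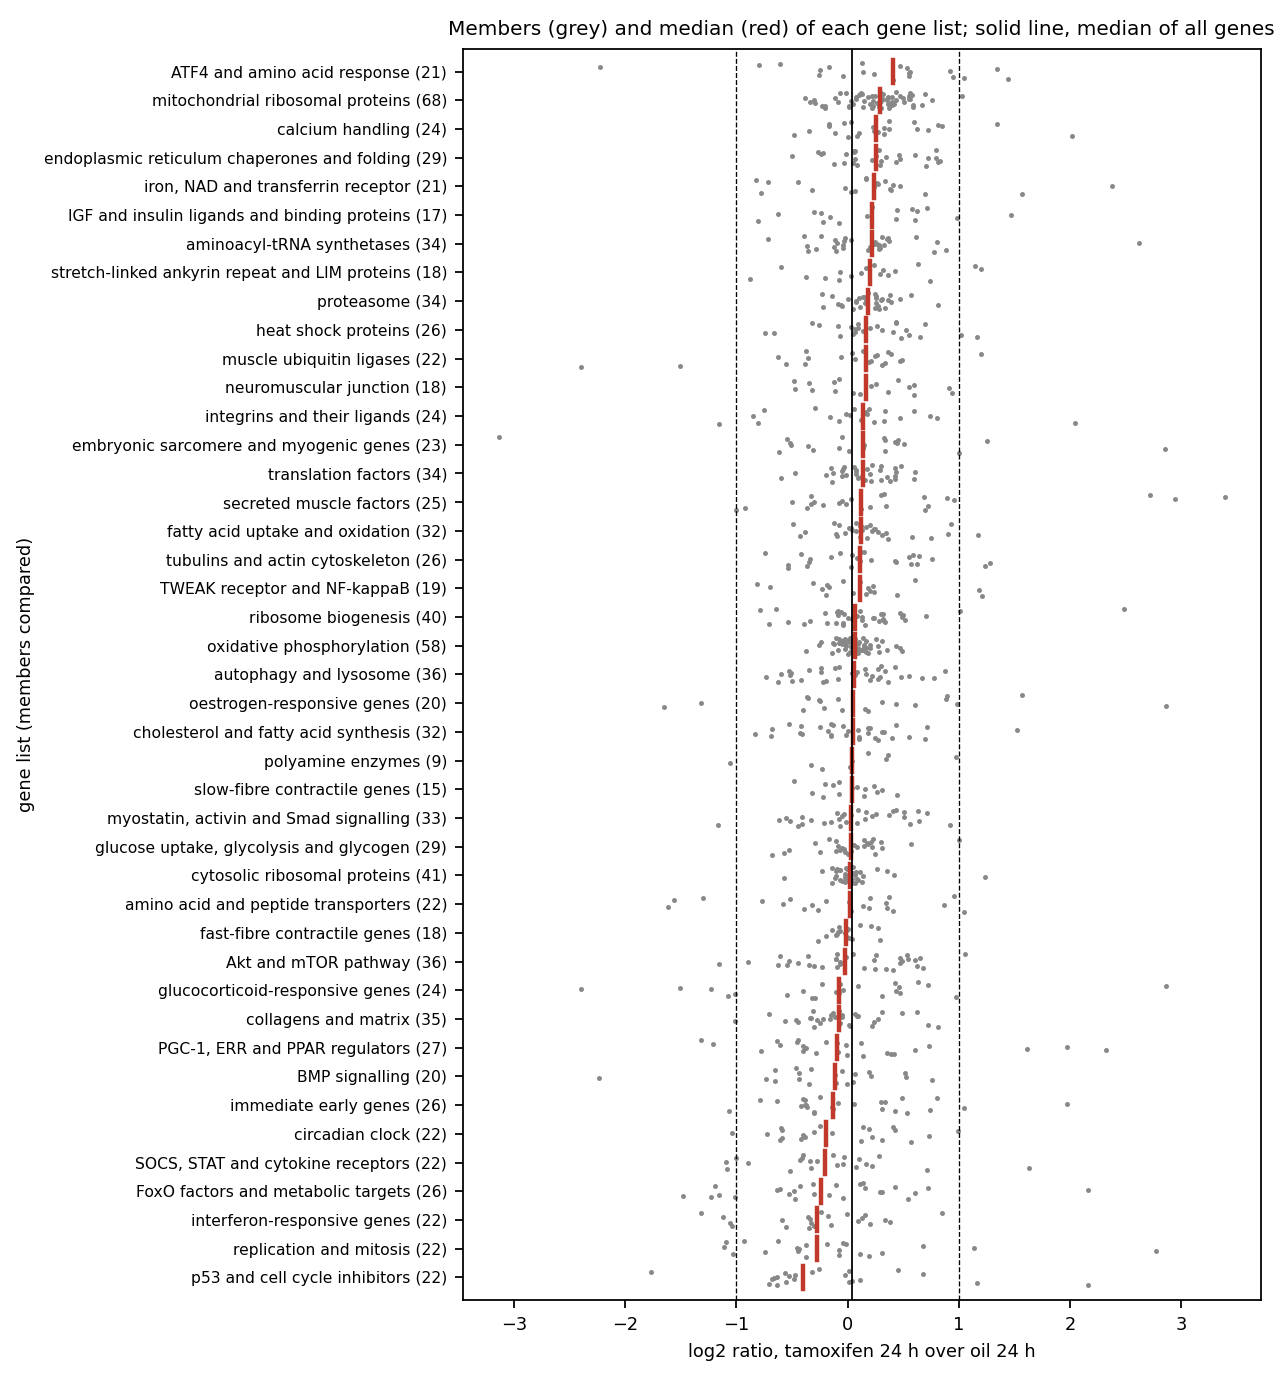
Log2 ratio of tamoxifen 24 h over oil 24 h (horizontal axis) of each member (grey points, brightest probe set) and the median (red bars) of the gene lists, ordered by median, with the number of members compared in brackets, dashed lines at 2-fold and a solid line at the median of all genes. Of these 43 functional lists the ATF4 list has the highest median, 0.41, and the list of p53 targets and cell cycle inhibitors the lowest, -0.40, and most members of every list lie within 2-fold.

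The cell cycle lists had calls in both directions. Among 22 p53 targets and cell cycle inhibitors the median was -0.40, with 5 of 16 p53 targets above 0. Cdkn1a and Cdkn2b, the inhibitor p15, were higher, the latter at 23.6 and 52.7, 2.24-fold. Eda2r, a p53 target and the receptor for ectodysplasin A2, read 159.6 and 46.9, 3.41-fold lower, the opposite direction from Cdkn1a. Among 22 replication and mitosis genes Pttg1 and Mcm2 were higher and Mcm4, Tk1 and Ccne2 lower, with a median of -0.28. Mcm2 and Mcm4 are subunits of the replicative helicase, and Mcm2 read 52.1 and 114 on its brightest probe set and 29.8 and 27.9 on the other. Mcm4 read 80.6 and 37.3, 2.16-fold lower. Tk1, thymidine kinase, at 2.13-fold, and cyclin E2 (Ccne2), at 2.05-fold, both missed 2-fold unscaled and after quantile or loess normalisation.

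The contractile apparatus of fast and slow fibres had no call among 18 and 15 genes. Mylpf, the fast regulatory light chain, read 9755 and 9829.9, and Myl2, its slow counterpart, 2737 and 3025. Embryonic and myogenic genes had 3 higher and 1 lower among 23. Mybph, a myosin-binding protein, read 259 on oil and 1874 on tamoxifen, 7.23-fold higher, and 4299.8 at 48 h. Actc1, cardiac actin, which fetal muscle makes, read 1461 and 2932, 2.01-fold higher, on the threshold and missed after quantile or loess normalisation. Cdh15, a cadherin of satellite cells and myoblasts, read 43.5 and 104, 2.38-fold higher. Sdc4, a syndecan of satellite cells and of other cells, read 391 and 44.5, 8.78-fold lower. Its other probe set read 46.1 and 61.5, so the direction of Sdc4 rests on 1 probe set.

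Calcium handling gave 2 higher genes of 24, with a median of 0.26. Sln, sarcolipin, an inhibitor of the reticulum's calcium pump, read 48.7 and 196, 4.03-fold higher, and 28.8 at 48 h, below oil. Sypl2, mitsugumin 29, a protein of the triad membranes, read 549 and 1392, 2.54-fold higher. Of 18 stretch-linked ankyrin repeat and LIM proteins 2 were higher. Xirp1, an actin-binding protein of muscle junctions, read 158 and 364, 2.30-fold, and Flnc, filamin C of the Z disc, 439 and 968, 2.21-fold, with 0.79 as log2 ratio on its other probe set. Among 26 tubulin and actin genes Tuba8 and Tubb6 were higher, the latter at 71.7 and 174, 2.42-fold, with 0.23 on its other probe set. Among 24 integrins and ligands Itga5, the fibronectin receptor chain, read 7.33 and 30.2, 4.12-fold higher. With a raised floor its log2 ratio was 1.10, against 2.04. Itga5 passed the filter only with the 48 h array averaged in, where it read 41.3. Itga1, a collagen receptor chain, read 62.9 and 28.3, 2.23-fold lower, though -0.071 as log2 ratio on its other probe set. No gene of the neuromuscular junction passed 2-fold among 18, and Chrna1, the receptor subunit that denervation raises, read 120.3 and 182.

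Energy metabolism showed few calls. Among 58 subunits of oxidative phosphorylation none passed 2-fold, 39 lay above 0 and the median was 0.064, though a dimmer probe set of 1 of them passed, as did those of Uqcr10, which this list does not hold. Plin5 was the 1 call of 32 genes of fatty acid uptake and oxidation, and Ppp1r3c the 1 call of 29 genes of glucose and glycogen. Of 32 genes of cholesterol and fatty acid synthesis Dhcr7, which makes the last step to cholesterol, was higher, at 17.3 and 49.9, 2.88-fold. Of 9 polyamine enzymes Smox, spermine oxidase, was lower, at 797 and 384, 2.08-fold, and missed 2-fold unscaled. The regulators of these programmes had 3 higher and 2 lower among 27. Rxrg, a partner of nuclear receptors in muscle, read 185 and 565, 3.06-fold higher. Pparg, the adipogenic receptor, and Nr4a3, an orphan receptor that exercise induces, were higher from dim values, 6.46 and 32.4, and 5.50 and 21.5. With a raised floor Nr4a3 had a log2 ratio of 0.61, against 1.97, and Pparg had 1.20, against 2.33. Both passed the filter only with the 48 h array averaged in, where Nr4a3 read 37.3 and Pparg 24.3. Nr2f2 was 2.32-fold lower on its brightest of 4 probe sets and spread on the others from -0.15 to 0.47. Nrip1, a corepressor of oxidative genes, read 369.9 and 149, 2.49-fold lower, with 472 at 48 h, and its 6 probe sets did not share a direction.

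Iron and NAD genes, 21 in all, had a median of 0.24 and 2 calls, Tfrc and Nmrk2. Nmrk2, the muscle kinase that makes NAD from nicotinamide riboside, read 237 on oil and 1231 on tamoxifen, 5.20-fold higher, and 1929 at 48 h. It has a single kept probe set.

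Tamoxifen also binds oestrogen receptors, and 20 oestrogen-responsive genes were read beside the others. Of these 2 were higher, Lcn2 and Tfrc, and 2 lower, Nrip1 and Cyp26b1, an enzyme that clears retinoic acid, at 63.8 and 20.4, 3.13-fold. The median was 0.050. Lcn2 and Tfrc are known to respond to other signals as well, and the share of the drug itself in any result here was not tested.

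Signalling genes outside the insulin pathway were mixed. Among 26 immediate early genes Atf3 and Nr4a3 were higher and Jund lower, at 301 and 144, 2.09-fold. Of 22 genes of cytokine receptors and their SOCS and STAT relays Cish, an inhibitor that STAT5 induces, was higher at 222 and 686, 3.09-fold. Socs3, a brake on interleukin 6 signalling, read 117 and 55.1, 2.13-fold lower, with 0.092 on the dimmest of its 3 probe sets. Il6ra and Il15, a muscle cytokine at 2.00-fold, were the other lower members. Relb, a subunit of NF-kappaB, was higher at 14.8 and 33.5, 2.27-fold, and with Tnfrsf12a made 2 calls among 19 TWEAK and NF-kappaB genes. Of 22 circadian clock genes Dbp, an output factor, was lower, at 1038 and 506, 2.05-fold. Jund, Socs3, Il15 and Dbp each missed 2-fold with the values unscaled. Il15 also missed it after quantile or loess normalisation and with a pseudocount, and Socs3 and Dbp with the median of their probe sets or without the probe sets that can match several transcripts.

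Of 22 interferon-responsive genes 7 lay above 0, 4 were lower (18.2%) and none higher, with a median of -0.27 that lay between -0.18 and -0.10 under the other scalings. Xaf1 read 111 and 44.4, 2.49-fold lower, with -0.16 on its other probe set. Gbp3, a guanylate-binding protein, was 2.17-fold lower, Oas1a, which senses double-stranded RNA, 2.09-fold and Ifit3 2.06-fold. Gbp3 missed 2-fold after quantile normalisation, Ifit3 unscaled, Oas1a under both and after loess, and Xaf1 with the median of its probe sets as value.

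Of 35 collagens and matrix genes 1 was lower, Col12a1, at 44.5 and 22.1, 2.02-fold, and it missed 2-fold unscaled, after quantile or loess normalisation and with a pseudocount in place of the floor. The list named secreted muscle factors, with 25 genes compared, had 3 higher and 1 lower, but not all its members are secreted factors. The higher ones were Flrt1, Sema3f and Lfng, and the lower one was Il15. Flrt1 is the cell-surface protein given above. Lfng, an enzyme that puts sugar on Notch and is not itself a hormone, read 4.90 and 32.1, 6.56-fold higher. Lfng was near the floor on oil, and with a raised floor its log2 ratio was 1.19, against 2.71. It passed the filter only with the 48 h array averaged in, where it read 37.4.

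Markers of cell types were read to see what the muscle held. The 10 skeletal muscle markers summed to 91324 on oil and 88325 on tamoxifen, and none passed 2-fold, so both arrays carried the markers of the labelled tissue. Endothelial markers, 14 in all, summed to 2770.4 and 2610.4, and 15 macrophage markers to 2516 and 2501, with medians of 0.050 and 0.058. Smooth muscle and pericyte markers summed to 7148 and 5976, with 1 of 12 above 0. That was Smtn, smoothelin, at 265 and 567, 2.14-fold higher, which missed 2-fold after loess normalisation. The 13 tendon and cartilage markers summed to 3947 and 3162, and of the 10 kept 2 lay above 0, with a median of -0.44. Among them Fmod, fibromodulin, read 1582 and 1074, and Tnmd, tenomodulin, 561 and 396. Fewer cells of a type and less RNA per cell cannot be told apart in such samples.

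The 12 fibroblast markers summed to 23250.6 and 21311. Of these Clec3b was lower, at 165 and 57.7, 2.85-fold, and the median was -0.12. The 10 adipocyte markers in the annotation summed to 12839 and 12534. Most of that came from Car3, the muscle carbonic anhydrase given above, at 8153 and 7069.6, so the sum says little about adipocytes. Of the 8 kept, 7 lay above 0 and Car3 below, with a median of 0.58, and Pparg, Cidea and Cidec were higher. Cidec, a lipid droplet protein, read 39.7 and 85.2, while Adipoq, adiponectin, read 564 and 674. The log2 ratio of Cidea was 1.37, and 0.51 with a raised floor. Cidea passed the filter only with the 48 h array averaged in, where it read 23.8. Of 7 nerve and Schwann markers 1 was above 0, with a median of -0.22. Mag, a myelin protein, was lower at 2.01-fold, and it missed 2-fold unscaled, after quantile or loess normalisation and with a pseudocount. Of 12 lymphocyte markers none was kept, and Cd3d, Cd4, Igll1 and Nkg7 were at the floor on both arrays, as were Camp, Cxcr2 and Elane of the neutrophil list and Hba-a1 of the erythroid list. Only 5 of 10 erythroid and blood markers had a probe set annotated to 1 gene. Of these Alas2, at 39.2 and 35.8, and Car2, at 74.2 and 103, were kept. The amount of blood RNA was not tested. In the neutrophil list 3 markers were kept, with a median of -0.73, and Ngp was lower at 22.6 and 10.9, but within 2-fold in 5 of 10 alternatives: unscaled, quantile, loess, a pseudocount and a raised floor. The lean of the tendon, smooth muscle and adipocyte markers stands beside the matrix, actin and lipid genes above, and its part in those results was not tested.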

How the data were processed

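Pooled gastrocnemius RNA, extracted with Trizol and cleaned up on an RNeasy column, was hybridised to Affymetrix Mouse 430 2.0 arrays, per the labels. The authors deposited a linear intensity for each of 45101 probe sets and each array. Probe summary, background correction and scaling are steps not given in the sources used here. Precision is limited by the number of arrays.

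The 64 manufacturer's controls were set aside. Probe sets with a percentile rank of 0.5 or more, averaged over the 3 arrays, were kept (21804, of which 19362 had 1 gene in the platform annotation, with symbols updated to RefSeq's GRCm38.p6 table). Each array was multiplied by a factor that equalised the medians of the kept probe sets (oil 1.01, tamoxifen 24 h 0.945, tamoxifen 48 h 1.05). Scaled values under 4.05, their 25th percentile, were raised to it before taking log2. With 1 array a group, results rest on the 2-fold rule, with 11 alternatives of filter, scaling, floor and probe set choice. Python 3.11.15, numpy 2.4.6, pandas 2.3.3, scipy 1.17.1 and statsmodels 0.14.6 were used, and the calculation was tested on simulated data.

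Named genes are up to 30 agreeing genes in each direction without clone names, list members past 2-fold (up to 8 a list, otherwise up to 3 of the brightest) and a fixed set around Akt, FoxO and Smad. Genes that complete a small count, and the markers named at the floor, were added. The members, the 43 functional lists and the 12 marker lists were chosen with earlier results of these data known.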

Additional observations from a re-analysis of the deposited data

Results flagged for a closer look

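The manufacturer's control probe sets took no part in the comparison, but some of them read mouse genes, and 5 of these were at least 2-fold higher on tamoxifen 24 h than on oil while the spiked hybridization controls were not. All 3 for the transferrin receptor were higher, with log2 ratios of 1.57 at the 3' end (68.2 and 202), 1.89 at the 5' end (20.9 and 77.7) and 1.47 in the middle (15.1 and 42.1). Of 4 for pyruvate carboxylase, a mitochondrial enzyme that makes oxaloacetate, 2 passed 2-fold, with log2 ratios of 1.59 at the 3' end (95.5 and 287) and 1.27 in the middle (33.2 and 80.1), and the others were at 0.96 and 0.66. Other mouse controls were lower: the 5' probe set of 18S ribosomal RNA had a log2 ratio of -1.37 (81.5 and 31.5), the others of 18S were at -0.56 and -0.66, and the control named MUR_b2 was at -0.71. The 18 spiked controls of the bioB, bioC, bioD and cre genes lay between -0.15 and 0.34, with a median of 0.071. The transferrin receptor controls may share probes or targets with the probe sets of Tfrc and are no independent sample.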

How the results depend on the processing

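The counts of calls followed the filter more than any other choice tried. With a rank of 0.25 or more 640 genes were higher and 1097 lower, with 52 and 116 agreeing; with no filter these were 694, 1237, 49 and 107; with a rank of 0.75 or more they were 115, 67, 17 and 18. Leaving out probe sets that can match several transcripts (names ending in _s_at, _x_at or _a_at) left 17 agreeing higher genes and 30 lower. That setting also turned the sign of Mcm2 (-0.10), Sdc4 (0.42) and Socs3 (0.092), which were then read on another probe set. Of the 32 higher and 43 lower agreeing genes, 32 and 30 still agreed unscaled, 29 and 36 after quantile normalisation, 28 and 37 after loess, 30 and 38 with a raised floor, 17 and 28 without the suffixed probe sets, and 16 and 15 with a rank of 0.75 or more. Of the 106 named genes past 2-fold, 64 passed it the same way under every alternative that gave a value, 41 were within 2-fold under at least 1, and 3 were reversed under at least 1. With the median of a gene's probe sets as its value 15 were lost. With the filter taken over only the 2 arrays compared, Cidea, Itga5, Lfng, Nr4a3, Pparg and Slc38a1 were not kept. No paired analysis was possible because each group had 1 array. No replicate could be left out for the same reason. Dim probe sets limit what can be read, since 13.1% of the dimmest of 5 level groups were 2-fold lower.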
